A study of Arabidopsis thaliana with 8 samples.

Results

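The genes described here drive or mark cell division: Aurora kinases of mitosis, histone H2B genes and the centromeric histone gene HTR12. They were chosen by gene symbol in the probe annotation of the array, as symbols that begin with 1 of 13 prefixes of cell cycle, replication and histone genes. Of 13350 genes that a probe set names alone, the rule found 8, each with 1 probe set: AUR1, AUR2, AUR3, HTB1, HTB2, HTB4, HTB11 and HTR12. They came from 3 of the prefixes (AUR, HTB and HTR), and the other 10 found no probe set. The cyclins, cyclin-dependent kinases, their inhibitors, E2F factors, origin recognition proteins, H2A genes and MCM genes except MCM7 were therefore not analysed here. Of 75 genes in the RefSeq annotation whose symbol meets the rule, 8 had a probe set named here, so H2B and H3 genes may be missing too. MCM7 (At4g02060), a subunit of the replicative helicase, carries the symbol PRL in that annotation and lies outside the rule. It is described beside the 8 genes because it was given as a marker of this set.

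Leaf RNA was measured on 8 Arabidopsis ATH1 arrays, 2 for each of 4 groups. They were VaNAC26-OE plants at 5 d without water (OE 5d), wild type at 5 d without water (WT 5d), VaNAC26-OE under the normal condition (OE 0d) and wild type under the normal condition (WT 0d). Wild type was Col-0, and the OE plants were Col-0 carrying the grapevine gene VaNAC26 behind the CaMV35S promoter. All plants had grown in soil for 21 d, fully expanded leaves were taken, and each OE sample pooled leaves of 3 homozygous lines, so lines cannot be compared. No array measured plants kept watered to 5 d, so a change with drought cannot be told apart from one with age or sampling day. Rubisco activase (RCA), a gene of photosynthetic leaf, lay between 6992 and 9858 on every array, and CLV3, a shoot meristem gene, between 4.11 and 6.47.

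Aurora kinases phosphorylate proteins of the spindle, the chromosomes and the forming cell plate. In Arabidopsis AUR1 and AUR2 are found on spindle microtubules and the cell plate, whereas AUR3 sits on centromeres. The HTB genes encode H2B, one of the core histones that package newly replicated DNA, and HTR12 (CENH3) encodes the H3 variant that marks centromeres. In leaves, cells divide in the young organ and later grow mainly by expansion, and transcripts of mitotic kinases and replication proteins are known as marks of the dividing phase.

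Values are intensities on a linear scale, normalized by the authors, and a log2 fold change is a difference between mean log2 intensities. Array medians ran between 36.2 and 38.2, and intensities under 32 were treated as near the background. A gene is said to have changed where its adjusted p was under 0.05 in a linear model of all 8 arrays (limma, Benjamini-Hochberg adjustment over 22746 probe sets). The arrays of OE 5d stood apart from each other: they differed by over 2-fold at 1294 probe sets, against 79 to 143 in the other pairs. Over all probe sets, log2 intensities of OE 5d replicate 2 correlated more closely with WT 5d (0.9895 and 0.9878) than with OE 5d replicate 1 (0.9775). The OE 0d arrays correlated at 0.9761 and 0.9748 with OE 5d replicate 1, and at 0.9601 and 0.9602 with OE 5d replicate 2. For the 8 genes, counts at the adjusted threshold that rest on OE 5d are therefore also given without each of its arrays. For MCM7 and the genes of other lists, values without each array are given for calls in OE 5d vs OE 0d. Whether the replicates of a group are separate plants is not stated. Each p-value of this model reflects only how far samples of the same group differ, which may be technical error. That spread is pooled over all groups and moderated across probe sets, so the OE 5d pair enters every comparison.

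In WT, all 3 Aurora genes fell with drought. AUR1 (At4g32830) lay at 35.6 and 28.4 on the WT 5d arrays, against 154 and 151 on the WT 0d arrays. AUR2 (At2g25880) lay at 16.6 and 12 in WT 5d, against 114 and 121 in WT 0d. The groups of both genes were far apart, and the intensity at 5 d was 20.8% of WT 0d for AUR1 and 12% for AUR2, as ratios of geometric means. The log2 fold changes were -2.27 (95% interval -2.89 to -1.64, adjusted p = 0.00112 from limma) for AUR1 and -3.06 (-3.88 to -2.24, adjusted p = 0.00104) for AUR2. AUR3 (At2g45490) was dim throughout, at 8.24 and 8.71 in WT 5d and at 38.8 and 31.8 in WT 0d. Its log2 fold change was -2.05 (limma, adjusted p = 0.00460), a size that is uncertain because only 1 of these 4 arrays was above 32. Once values under 32 were set to 32, its log2 fold change was -0.14 and did not pass the test (adjusted p = 0.503), and that of AUR2 was -1.88 and did (adjusted p = 0.0223).

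**Figure D1:**
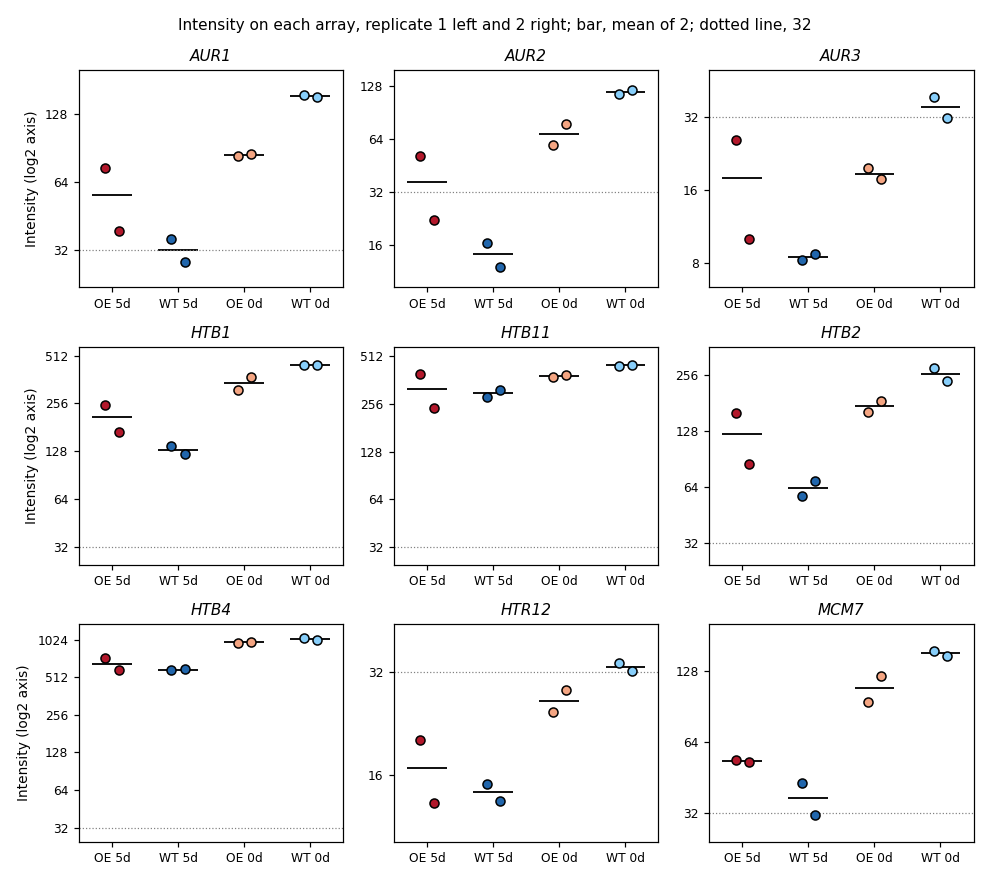
Normalized intensity (log2 axis) of the 8 genes and of MCM7 on each of the 8 arrays. Points are arrays, bars the mean of 2 and the dotted line an intensity of 32. WT 5d has the lowest and WT 0d the highest mean in all 9 panels, and in OE 5d replicate 1 lies above replicate 2.

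The H2B genes moved in the same direction in WT, by unequal amounts. HTB2 (At5g22880) lay at 57.2 and 69.2 in WT 5d and at 277 and 237 in WT 0d, with a log2 fold change of -2.03 (95% interval -2.66 to -1.39, adjusted p = 0.00158 from limma). HTB1 (At1g07790) lay at 138 and 123 in WT 5d and at 447 and 445 in WT 0d, with -1.78 (-2.24 to -1.31, adjusted p = 0.000969). Both had groups that did not overlap and intensities at 5 d of 24.6% and 29.2% of WT 0d. HTB4 (At5g59910) fell less, with 583 and 591 in WT 5d against 1047 and 1020 in WT 0d (log2 fold change -0.82, -1.15 to -0.48, adjusted p = 0.00421 from limma). HTB11 (At3g46030) had 284 and 315 in WT 5d and 446 and 453 in WT 0d, and its log2 fold change of -0.59 (-1.10 to -0.08) did not pass the test (adjusted p = 0.0811). That miss depended on the arrays in the fit, since HTB11 passed without OE 5d replicate 1 or replicate 2 (adjusted p = 0.00527 for each, with 19.1% of all probe sets then falling), when the spread of the OE 5d pair leaves the estimate. Genes of the H2B family are near-identical in sequence, and how far each probe set reads its relatives was not measured here.

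The centromeric histone gene HTR12 (At1g01370) fell as well. It lay at 15.1 and 13.4 in WT 5d and at 34.0 and 32.2 in WT 0d, with a log2 fold change of -1.22 (95% interval -1.69 to -0.74, adjusted p = 0.00365 from limma). The 2 groups did not overlap, but WT 0d was only just above 32, and on a floor of 32 its log2 fold change was -0.048 (adjusted p = 0.361). MCM7, outside the rule, lay at 42.9 and 31.5 in WT 5d and at 156 and 148 in WT 0d, and its log2 fold change was -2.05 (limma, adjusted p = 0.000654).

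Of the 8 genes, 7 fell in WT 5d vs WT 0d and 0 rose, where 14.8% of all probe sets fell. At the study's threshold (a fold over 2 or under 0.5 at an unadjusted p under 0.05) 6 of the 8 fell, against 8.1% of all probe sets. All 8 had WT 5d arrays below both WT 0d arrays, as did 32.6% of all probe sets. Their median log2 fold change was -1.90, against 0.01 over all probe sets. Among genes above 32 on all 4 of these arrays, the share of probe sets with a larger fall was 1.46% for HTB2, 2.25% for HTB1, 10.9% for HTB4 and 15.3% for HTB11, so the H2B genes lay at different depths of the lower side of the distribution. The other 4 genes were under 32 on 1 or both WT 5d arrays, which leaves their place in it uncertain.

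**Figure D2:**
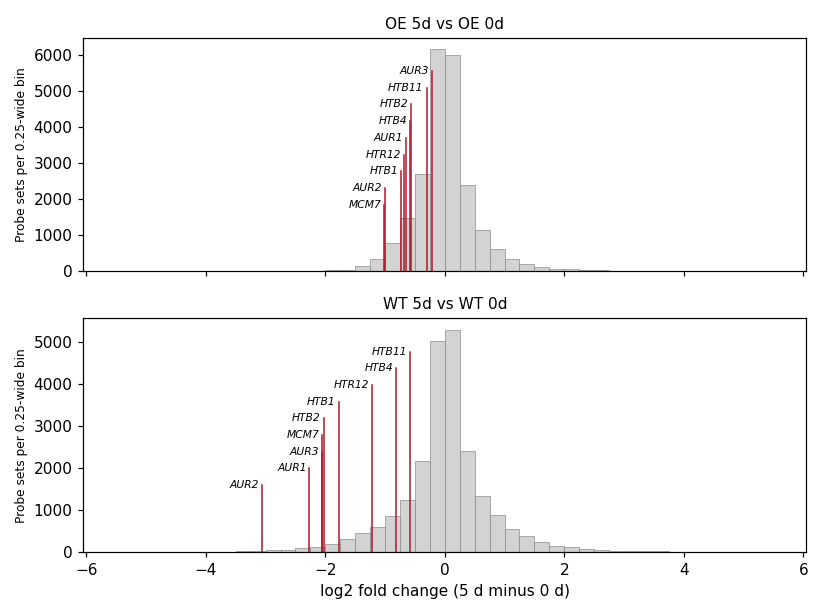
Number of probe sets in bins of log2 fold change (5 d minus 0 d) in the OE lines (top) and WT (bottom), with the 8 genes and MCM7 as labelled red lines whose height carries no value. In the OE lines the 9 genes lie between -1.02 and -0.21, and in WT between -3.06 and -0.59.

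In the OE lines the changes with drought were smaller, and the 2 arrays of OE 5d were far apart. AUR1 lay at 73.4 and 38.9 in OE 5d (replicates 1 and 2) and at 83.5 and 84.8 in OE 0d. AUR2 lay at 51.0 and 22.4 in OE 5d and at 58.9 and 77.4 in OE 0d, and AUR3 at 25.9 and 10.1 in OE 5d and at 19.7 and 17.8 in OE 0d. For AUR1 and AUR2 replicate 1 was near OE 0d and replicate 2 well below it, and for AUR3 replicate 1 was above OE 0d, so that only its groups overlap. The log2 fold changes were -0.66, -1.0 and -0.21 (adjusted p = 0.161, 0.109 and 0.791 from limma), with 95% intervals of -1.28 to -0.03, -1.82 to -0.18 and -1.07 to 0.64.

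Of the histone genes, HTB1 and HTB4 fell in the OE lines. HTB4 lay at 728 and 587 in OE 5d and at 968 and 986 in OE 0d (log2 fold change -0.58, 95% interval -0.91 to -0.25, adjusted p = 0.0352 from limma). HTB1 lay at 249 and 170 in OE 5d and at 310.0 and 377 in OE 0d (-0.73, -1.20 to -0.27, adjusted p = 0.0484). Neither gene had overlapping groups. HTB2, at 160.0 and 85.5 in OE 5d and at 162 and 184 in OE 0d, differed by -0.56 in log2 and did not pass (adjusted p = 0.237). HTB11, at 398 and 242 in OE 5d and at 379 and 389 in OE 0d, overlapped between groups, with -0.31 (adjusted p = 0.437). HTR12 lay under 32 on these 4 arrays, at 20.3 and 13.3 in OE 5d and at 24.4 and 28.3 in OE 0d (log2 fold change -0.68, adjusted p = 0.0686). MCM7 was the gene on which the OE 5d arrays agreed most closely, at 53.6 and 52.5, against 94.6 and 122 in OE 0d, and its fall was -1.02 in log2 (limma, adjusted p = 0.0129). This call held without OE 5d replicate 1 or 2 (adjusted p = 0.0108 and 0.0209) and not on a floor of 32 (adjusted p = 0.0657).

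Over the 8 genes, 2 fell and 0 rose in OE 5d vs OE 0d, where 6.53% of all probe sets fell, and 6 of the 8 had groups that did not overlap in this direction, as did 27.6% of all probe sets. At the study's threshold 1 gene (AUR2) fell, against 2.43% of all probe sets. AUR2 lay at the edge of that threshold, with a log2 fold change of -1.0001, and with -0.983 under quantile normalization and -0.999 under median centring. The median log2 fold change of the 8 genes was -0.62, against -0.01 over all probe sets. AUR3 and HTR12 were under 32 on every array of OE 5d and OE 0d, and AUR2 on OE 5d replicate 2. The sizes of their falls, here and with an array left out, are therefore uncertain. On a floor of 32 the fitted log2 fold changes were 0.00 for AUR3 and HTR12 and -0.74 for AUR2. All 8 genes were higher on OE 5d replicate 1 than on replicate 2, by 0.31 (HTB4) to 1.36 (AUR3) on the log2 scale with a median of 0.81, whereas the median difference over all probe sets was 0.02. Replicate 1 was the higher array at 52.6% of all probe sets, and the median difference regardless of sign was 0.24 over all probe sets. The calls followed these arrays: without OE 5d replicate 1 all 8 genes fell, with log2 fold changes from -1.60 (AUR2) to -0.67 (HTB11), where 13.1% of all probe sets fell. Without OE 5d replicate 2 the number was 0 of 8, where 7.65% fell, and the log2 fold change of AUR3 was 0.47 (adjusted p = 0.112). It was also 0 without any 1 of the 6 other arrays, where the adjusted p of HTB4 was 0.0613 to 0.192 and that of HTB1 0.0787 to 0.277.

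**Figure D3:**
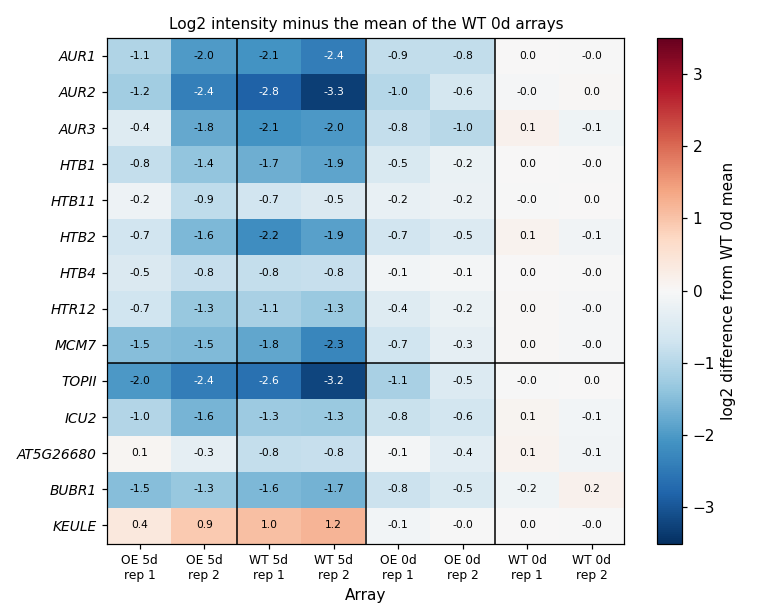
Log2 intensity of each gene on each array minus its mean on the WT 0d arrays (colour and printed value). The 8 genes and MCM7 stand above the line and 5 other replication and mitosis genes below it. All 9 upper rows are negative on the 6 arrays outside WT 0d, and KEULE is the row that is positive on the 4 arrays at 5 d.

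Whether drought changed these genes to a different degree in the OE lines was tested as the interaction, the change in the OE lines minus that in WT. All 8 differences were positive, from 0.24 (HTB4) to 2.06 (AUR2), with a median of 1.25 against -0.02 over all probe sets. None of the 8 passed the adjusted threshold in limma (adjusted p = 0.166 to 0.716), where 0.0308% of all probe sets did in this direction. On a floor of 32 the difference was 1.14 for AUR2, 0.14 for AUR3 and 0.048 for HTR12, so the sizes for these genes depend on values near the background. The 95% intervals of AUR1 (0.72 to 2.50), AUR2 (0.90 to 3.22), AUR3 (0.63 to 3.05), HTB2 (0.57 to 2.36) and HTB1 (0.39 to 1.70) lay above 0, which makes 5 of 8 at an unadjusted p under 0.05 against 7.43% of all probe sets. These 5 also met the study's threshold, against 3.12% of all probe sets. Without OE 5d replicate 2, 6 of the 8 passed (all but HTB4 and HTB11), where 9.72% of all probe sets did. Without OE 5d replicate 1 none passed, with 0.615% over all probe sets, and the differences ran from -0.077 (HTB11, adjusted p = 0.926) to 1.46 (AUR2, adjusted p = 0.0793).

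**Figure D4:**
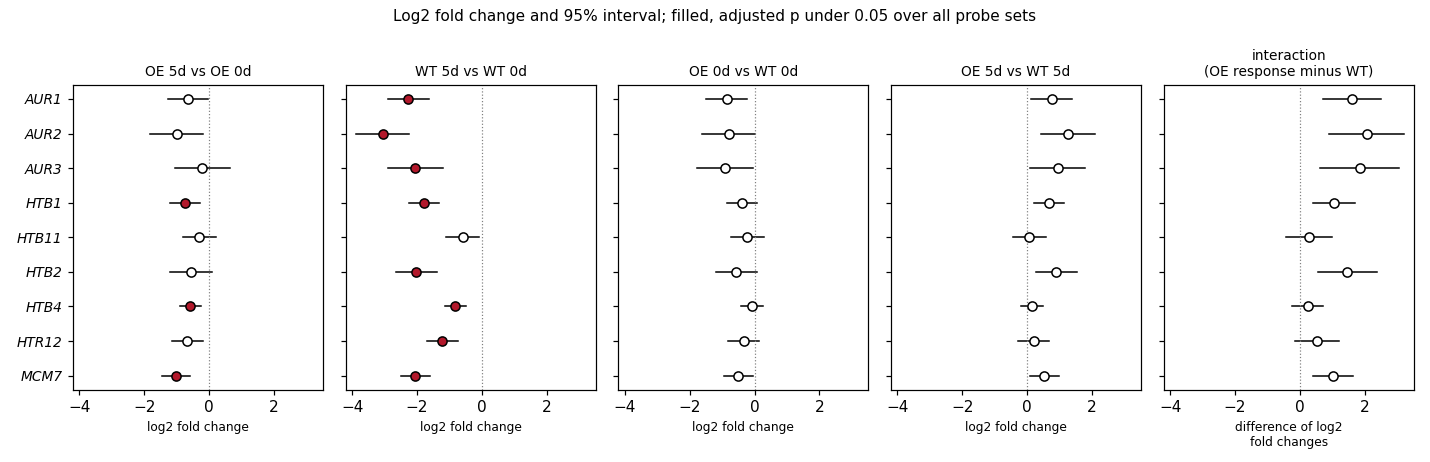
Log2 fold change (points) with its 95% interval (bars) for the 8 genes and MCM7 in the 4 comparisons and the interaction. Filled points passed an adjusted p of 0.05 over all probe sets. Filled are 3 of the 9 points for drought in the OE lines, 8 for drought in WT and 0 in the other panels.

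Under the normal condition, the 8 genes were lower in the OE lines by amounts that did not pass the test. The log2 fold changes of OE 0d vs WT 0d ran from -0.91 (AUR3) to -0.081 (HTB4) with a median of -0.48, against -0.01 over all probe sets. AUR1 is the clearest case, with 83.5 and 84.8 in OE 0d against 154 and 151 in WT 0d (log2 fold change -0.86, 95% interval -1.49 to -0.23, adjusted p = 0.444 from limma). AUR2, with 58.9 and 77.4 in OE 0d and 114 and 121 in WT 0d, had -0.80 (-1.62 to 0.02, adjusted p = 0.606). No gene of the 8 passed the adjusted threshold, where 0.0264% of all probe sets were called lower and 0.0528% higher, and none met the study's threshold, where 0.317% did. Of the 8, 2 (AUR1 and AUR3) had an unadjusted p under 0.05, where 4.02% of all probe sets did. All 8 had OE 0d arrays below both WT 0d arrays, as did 24.2% of all probe sets. The spread of the OE 5d pair enters this comparison through the shared estimate. Without OE 5d replicate 1 or replicate 2, AUR1 (adjusted p = 0.0453) and AUR3 (adjusted p = 0.0379) passed, where 0.259% of all probe sets were called lower, and both also passed in a fit of only the 4 arrays compared (adjusted p = 0.0301 and 0.0495). No share over all probe sets is given for the fit of 4 arrays, so these calls cannot be set against the other probe sets. For AUR3, 3 of these 4 arrays were under 32, and on a floor of 32 its log2 fold change was -0.14.

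At 5 d the order between genotypes was the opposite one. The log2 fold changes of OE 5d vs WT 5d ran from 0.054 (HTB11) to 1.26 (AUR2) with a median of 0.70, against 0.00 over all probe sets. AUR2 lay at 51.0 and 22.4 in OE 5d and at 16.6 and 12 in WT 5d (95% interval 0.44 to 2.08, adjusted p = 0.203 from limma). With 3 of these 4 arrays under 32, its log2 fold change on a floor of 32 was 0.34 (adjusted p = 0.846), and AUR3, under 32 on all 4, has no measured size. HTB2 lay at 160.0 and 85.5 in OE 5d and at 57.2 and 69.2 in WT 5d, with 0.90 (0.26 to 1.53, adjusted p = 0.220). None of the 8 passed the adjusted threshold (adjusted p = 0.203 to 0.932), where 0.0484% of all probe sets were called higher, and 1 (AUR2) met the study's threshold, where 1.31% did. An unadjusted p under 0.05 was reached by 5 of them, where 7% of all probe sets reached it in this direction, and the same number had groups that did not overlap, where the share of all probe sets was 19.6%. The size of the difference rested on OE 5d replicate 1. Without OE 5d replicate 2, the 3 Aurora genes, HTB1 and HTB2 were called higher, with log2 fold changes of 0.94 (HTB1) to 1.85 (AUR2), where 10.2% of all probe sets were called higher. Without OE 5d replicate 1 none was, with 0.545% over all probe sets, and HTB11 (-0.31) and HTR12 (-0.10) were then lower than in WT 5d.

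In the order of group means, all 8 genes and MCM7 had WT 5d lowest, then OE 5d, OE 0d and WT 0d, an order that 13.8% of all probe sets had, and 63.4% of those that fell in WT 5d vs WT 0d. The comparisons behind it share arrays, so they are not separate evidence of 1 pattern. For MCM7 the OE lines differed from WT by 0.53 in log2 at 5 d and by -0.50 at 0 d (adjusted p = 0.255 and 0.529 from limma), and its interaction was 1.03 (adjusted p = 0.192, or 0.179 without OE 5d replicate 1 and 0.0401 without replicate 2). Between neighbours in this order, no gene of the 9 passed between the genotypes at either time, and HTB1, HTB4 and MCM7 were those that passed in OE 5d vs OE 0d.

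Other genes of replication and mitosis came from lists of 41 genes in 4 groups, of which 5 had a probe set with a name here. Of these 5, 4 fell and 1 rose in WT 5d vs WT 0d, where 14.8% of all probe sets fell and 15.7% rose. TOPII, the topoisomerase that separates replicated chromosomes, had the largest fall of the 5, with 15.0 and 10.1 in WT 5d against 92 and 93.5 in WT 0d (log2 fold change -2.91, adjusted p = 0.000642 from limma). BUBR1, of the spindle checkpoint, lay at 14.9 and 14.1 in WT 5d and at 39.5 and 49.6 in WT 0d (-1.61, adjusted p = 0.000737). ICU2, the catalytic subunit of DNA polymerase alpha, and At5g26680 had falls of -1.28 and -0.83 in log2 (limma, adjusted p = 0.00286 and 0.0107), but both were under 32 on all 8 arrays, so the size of their changes is uncertain. KEULE, which acts in the membrane fusion that builds the cell plate, rose to 250 and 275 in WT 5d, against 122 and 120 in WT 0d (1.11 in log2, adjusted p = 0.00360 from limma). TOPII (-1.42, adjusted p = 0.0135) and BUBR1 (-0.77, adjusted p = 0.0212) fell in the OE lines and KEULE rose (0.71, adjusted p = 0.0448), where 6.53% of all probe sets fell and 7.06% rose. BUBR1 was under 32 on all 4 of these arrays and TOPII on both of OE 5d, so their sizes are uncertain, and on a floor of 32 none of the 3 passed (adjusted p = 0.142 for KEULE, 0.161 for TOPII and 1 for BUBR1). KEULE also did not pass without OE 5d replicate 2 (0.43, adjusted p = 0.0963). With OE 5d replicate 1 or 2 left out, the log2 fold change in the OE lines was -1.62 or -1.22 for TOPII and -0.69 or -0.85 for BUBR1. For KEULE it was 0.99 without replicate 1. Between genotypes, none of the 5 passed in limma at either time (3 at each time had an unadjusted p under 0.05, where 8.41% of all probe sets had one in either direction at 0 d and 15.9% at 5 d). At 0 d the 3 were TOPII, BUBR1 and ICU2, all lower in the OE lines. At 5 d they were TOPII and At5g26680, which were higher, and KEULE, which was lower.

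Markers of other cells also moved with drought. Of 4 stomatal lineage genes 3 had a named probe set, and their summed intensity was 62.4 to 64.4 in OE 5d, 60.6 to 62.4 in WT 5d, 90.5 to 91.1 in OE 0d and 101 to 105 in WT 0d. SPCH acts at the start of that lineage and MUTE midway in it. They had -0.89 and -0.65 in log2 in the OE lines (adjusted p = 0.0669 and 0.0529) and fell in WT, with -1.59 and -1.07 (limma, adjusted p = 0.00346 and 0.00379). SPCH was under 32 at 5 d, at 26.82 and 13.96 in OE 5d and at 15.55 and 16.53 in WT 5d. On a floor of 32 its log2 fold change in the OE lines was -0.16 (limma, adjusted p = 0.2). With MUTE under 32 on all 8 arrays, the sizes for SPCH and MUTE are uncertain. Both fell in the OE lines as well without OE 5d replicate 1 (adjusted p = 0.000683 and 0.00391), and without replicate 2 neither passed (adjusted p = 0.109 and 0.130). FAMA, which acts at the end of the lineage, lay at 37.6 and 37.7 in WT 5d and at 35.7 and 39.9 in WT 0d. PYK10, the only gene of the root list, lay at 25.2 and 13.6 in OE 5d and 61.7 and 40.5 in OE 0d, and at 11.3 and 10.4 in WT 5d and 139 and 101 in WT 0d. It fell in the OE lines and in WT (log2 fold changes -1.43 and -3.45, adjusted p = 0.0239 and 0.000650 from limma). In the OE lines PYK10 passed with each OE 5d array left out (-1.88 without replicate 1 and -0.99 without replicate 2) but not on a floor of 32 (-0.64, adjusted p = 0.282). Their part in the changes of the division genes was not tested. In leaf RNA, fewer cells with transcripts of the division genes and less of that RNA per cell cannot be told apart. Which cells carried these transcripts, dividing or not, was not measured.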

How the data were processed

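The deposited values were intensities on a linear scale, 1 for each probe set and array. The authors had amplified and biotin-labelled the RNA, hybridized it to ATH1 arrays and scanned them through a commercial service, and which software summarized and normalized the probes is not given in the sources used here. Controls of the array, 64 of 22810 probe sets, did not enter the tests, and intensities were put on a log2 scale over a floor of 1, which no value reached. limma (version 3.58.1, R 4.3.3; lmFit and eBayes) was fitted to all 8 arrays with 1 mean per group. The study's threshold, a fold over 2 or under 0.5 at an unadjusted p under 0.05 in the same fit, served as an alternative. The fit was tested on simulated data with an equal spread in every group. That test does not cover the wider spread of the OE 5d pair. Names came from the platform annotation, with 13513 probe sets of 1 symbol, 503 of several (not named) and 8730 not listed, and through Entrez identifiers from RefSeq (TAIR10.1). Of 75 genes in 11 lists, 11 had a named probe set, under 80% of every list except the root list, so list counts describe the named genes only. Named with values on each array were AUR1, AUR2, MCM7 and the 3 largest changes in WT 5d vs WT 0d within each role. Up to 4 genes per list were also named, with values on some or all arrays or a range (RCA and CLV3). ICU2, At5g26680 and MUTE are given by fitted changes alone. HTB11 falls outside this rule and was added after its values were seen. The genes and lists were chosen with earlier results of these data known. Arrays have no read depth, and 2 per group limit the precision. Python 3.11.15, pandas 2.3.3 and numpy 2.4.6 made the tables.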

Additional observations from a re-analysis of the deposited data

How the results depend on the processing

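In WT 5d vs WT 0d, 7 of the 8 genes fell with all arrays, 7 to 8 with 1 array left out, and 5 with dim probe sets left out (AUR3 and HTR12 were then not tested) or values under 32 set to 32. In OE 0d vs WT 0d, the number lower was 2 with the 4 arrays compared alone (a setting that gives no interaction) and 0 to 2 with 1 array left out. In OE 5d vs OE 0d, 2 genes fell with all arrays, 0 with values under 32 set to 32 or with the 4 arrays alone, 1 at the study's threshold, and 0 to 8 with 1 array left out. In OE 5d vs WT 5d, the number higher was 1 (AUR2) at the study's threshold and 0 to 5 with 1 array left out, and for the interaction it was 5 and 0 to 6. The labels give replicate numbers without saying what they share, and the differences between replicates 1 and 2 correlated between groups at 0.014 to 0.223. With the replicate number as a block, 1 gene (HTB4) fell in OE 5d vs OE 0d, and no other count for the 8 genes changed. Shares over all probe sets are given above for all arrays, for the study's threshold and without each OE 5d array. For every other setting, the fits of 4 arrays alone included, none is given. Those counts therefore cannot be set against the other probe sets.

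Signs turned only with an array left out, in values that did not pass the test. The ranges were -0.89 to 0.47 for AUR3, -0.67 to 0.054 for HTB11 and -0.10 to 0.29 for At5g26680 in OE 5d vs OE 0d. In OE 5d vs WT 5d they were -0.31 to 0.42 for HTB11, -0.10 to 0.51 for HTR12 and -0.35 to 0.27 for ICU2, and for the interaction -0.077 to 0.64 for HTB11. The cause was not tested. Quantile normalization, median centring and a trended robust eBayes kept the count of called genes in each comparison, except that HTB11 made 8 in WT under quantile normalization (adjusted p = 0.0443).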

Other observations

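The nearest genes on either side of the 8 were looked up in RefSeq, and 7 had a probe set with a name here. Of these, 3 had a mean intensity above 32 in both WT groups. In WT 5d vs WT 0d the neighbour of AUR3 (At2g45500) was higher, at 1.21 (adjusted p = 0.00176 from limma), and the neighbour of HTB2 (At5g22875) had 0.22 (adjusted p = 0.344). One neighbour of AUR2 (At2g25870) was lower, at -0.57 (adjusted p = 0.0314), where AUR2 itself had -3.06. The other 4 (At2g25890 beside AUR2, At1g07795 beside HTB1, At3g46020 beside HTB11 and At5g59900 beside HTB4) had means under 32 in both groups. Their fitted log2 fold changes ran from -0.98 to -0.16, and the size is uncertain. At3g46020 (-0.98, adjusted p = 0.012 from limma) and At2g25890 (-0.53, adjusted p = 0.0358) passed the test. At1g07795 and At5g59900 did not (adjusted p = 0.43 and 0.337). HTB11 itself had -0.59.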
